A study of Mus musculus with 3 samples.

Results

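The cyclin-dependent kinase (CDK) inhibitors and p53 target genes described here are 10 genes out of the 31053 in the feature table: *Cdkn1a*, *Cdkn1b*, *Cdkn2c*, *Cdkn2d*, *Trp53*, *Mdm2*, *Trp53inp1*, *Ccng1*, *Phlda3* and *Sesn1*. They were chosen by name, for their place in cell-cycle arrest and in the p53 response, and followed through 3 single-cell RNA libraries of mouse spleen CD4+ T cells. The 0hr-WT library came from Ift20 f/f mice, which carry the floxed allele without Cre, and its cells were kept in DPBS, a buffered salt solution. The 24hr-WT library came from cells of the same genotype after 24 h with antibodies to CD3 and to CD28, each at 1 μg/mL, which engage the T cell receptor and its costimulatory receptor. The 24hr-KO library came from Ift20 f/f CD4 cre mice, in which Cre driven by *Cd4* regulatory sequence deletes *Ift20*, a subunit of the intraflagellar transport machinery, and its cells had the same stimulation. All libraries were of C57BL/6 background and of male mice of 5 to 10 weeks, were enriched for naïve CD4+ T cells and then sorted as 7AAD-CD3+CD4+ cells, a gate that leaves out dead cells and cells without CD4. No unstimulated library of the Cre-carrying mice was analysed here. There was also no 24 h library without the antibodies. The antibodies, the 24 h and the library can therefore not be told apart, and "after stimulation" below stands for all of them.

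Each condition is 1 library, so values have no replicates, no test was made and no p-value is given. The level of a gene is its count of UMIs, the random tags that mark each captured RNA molecule, scaled to a library total of 1000000 and written CPM. The 95% intervals are exact Poisson intervals for CPM, exact binomial intervals for a ratio and Clopper-Pearson intervals for a share of cells, and all cover counting error only. A gene is called higher or lower where 2 libraries differed by at least 1.5-fold, which is a description of these libraries and not a test of the conditions.

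CDK inhibitors bind cyclin-CDK complexes and hold the cell before DNA synthesis. The CIP/KIP proteins p21 (*Cdkn1a*) and p27 (*Cdkn1b*) act mainly on CDK2 complexes, and the INK4 proteins p18 (*Cdkn2c*) and p19 (*Cdkn2d*) bind CDK4 and CDK6. The transcription factor p53 (*Trp53*) is controlled largely through the stability of its protein, which the ubiquitin ligase *Mdm2* limits, and it induces *Cdkn1a*, *Mdm2*, *Ccng1*, *Phlda3*, *Trp53inp1* and *Sesn1* after DNA damage and other stress. Resting T cells are known for high p27, which is lost as they enter the cell cycle.

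RefSeq promoter windows, each reaching from 250 bases before to 50 bases after a transcription start on GRCm38.p6, were found for 9 of the 10 genes, as 12 windows, and not for *Trp53inp1*. They were searched for the p53 response element, which is 2 adjoining copies of the 10-base p53 consensus, with up to 2 mismatches outside the fixed C and G of each copy. This element is its own reverse complement, so 1 strand covers both. It was in 107 of all 32851 windows (0.326%) and in 2 of the 12, namely those of *Cdkn1a* and *Ccng1*, each with 1 mismatch. With no mismatch and up to 13 bases between the copies it was in 0.0731% of all windows and in 1 of the 12, that of *Cdkn1a*. Both stretches are shown because these genes were among the members higher after stimulation, and the capitals mark the element, written 5′ to 3′ on the strand of the gene.
Cdkn1a, chr17:29090868-29090968, plus strand: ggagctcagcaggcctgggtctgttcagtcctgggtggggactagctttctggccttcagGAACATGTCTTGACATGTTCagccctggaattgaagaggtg
Ccng1, chr11:40755402-40755536, minus strand: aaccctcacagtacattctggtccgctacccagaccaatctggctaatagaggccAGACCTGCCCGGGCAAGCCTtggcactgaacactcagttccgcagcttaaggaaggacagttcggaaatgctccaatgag
The *Cdkn1a* element lay from 51 to 32 bases before the more upstream of its RefSeq starts, and the *Ccng1* element from 195 to 176 bases before its start. A single copy of the consensus without mismatch was in 8.36% of all windows and in 6 of the 12, those of *Cdkn2d*, *Trp53*, *Mdm2*, *Sesn1*, *Cdkn1a* and *Ccng1*, and in the last 2 it overlapped the element. The window of *Phlda3* held none. Sequence outside the windows was not searched, so a gene without a match here can have the element elsewhere. The FOXO motif TGTTTAC, read on both strands, was in 3.65% of all windows and in those of *Mdm2* and *Sesn1*, the E-box CACGTG in 7.15% and in those of *Cdkn2c* and *Trp53*, and a consensus E2F site in 0.323% and in none of the 12. A match is a description of the letters in a window, and binding was not measured.

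The deleted gene was checked first: *Ift20* was at 64.4 CPM in 0hr-WT, 76.0 CPM in 24hr-WT and 6.60 CPM in 24hr-KO, which follows the labels. Barcodes were kept if over 200 genes were seen and if mitochondrial UMIs were below 15%, and 8031, 9903 and 13920 cells with 37133949, 116979076 and 106435143 UMIs remained, at medians of 4627, 12167 and 5014.5 UMIs per cell. The T cell markers *Cd3d*, *Cd3e*, *Cd3g*, *Cd4* and *Trac* were all present, between 2786 and 3458 CPM in sum. Of the 5 red cell markers 4 or 5 were at 0 in every library, the 3 platelet markers summed to at most 0.188 CPM, the 4 B cell markers summed to 13.8, 43.8 and 45.8 CPM, of which *Cd74* made most, the 6 myeloid markers to 81.1, 76.6 and 80.6 CPM, nearly all *Cst3* with *Lyz2* at 0 after stimulation, and the 5 CD8 T and NK cell markers to 52.0, 9.83 and 12.4 CPM. The part of these cell types in the results was not tested. The libraries shared 125 to 207 cell barcodes pairwise, at most 1.49% of a library. Doublets were not removed. In the 24hr-KO library 47.8% of cells had under 4000 UMIs, against 23.2% in 24hr-WT and 33.1% in 0hr-WT, and these cells bear on several results below.

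Between 0hr-WT and 24hr-WT the members fell into a group that was higher, a group that was lower and a group that stayed within 1.5-fold. *Cdkn1a*, *Phlda3* and *Ccng1* were higher in 24hr-WT than in 0hr-WT, and *Cdkn1b*, *Cdkn2d* and *Sesn1* were lower. These were 3 of 10 members in each direction, where 28.6% of the 13297 genes (those with 10 or more UMIs in the pair of libraries) were higher and 34.3% were lower, so the shares were near those of all genes. Counted as UMIs per cell, which were more numerous after stimulation, 7 members were higher and 3 lower. That scaling raised the ratios of all genes by construction, so this count is not read as a result about the members. The members stood apart from each other rather than from the rest, with log2 ratios from -3.12 to 8.03 and a median of 0.03 beside -0.09 over all genes.

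**Figure D1:**
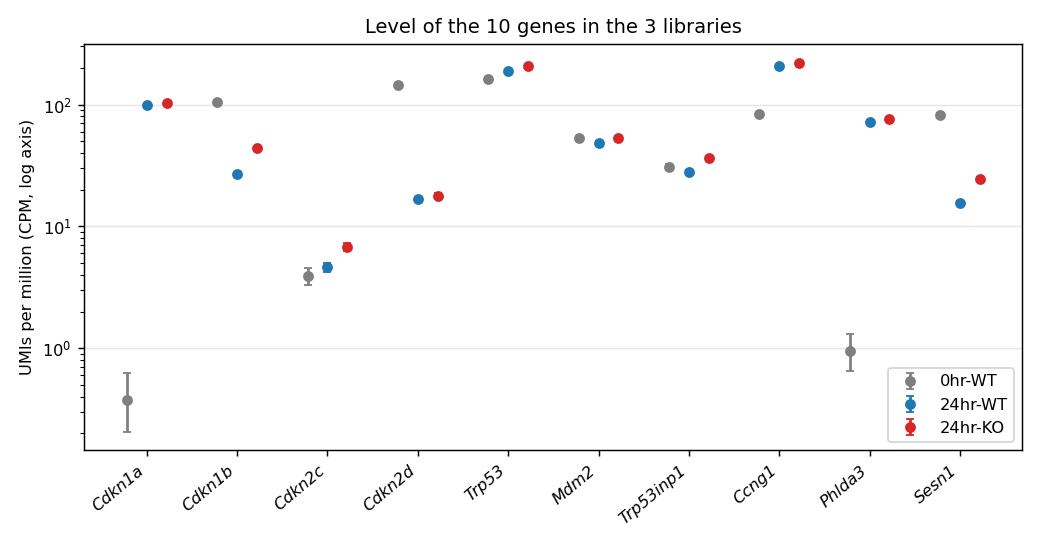
Level of each of the 10 genes, in CPM on a log axis, in the 0hr-WT (grey), 24hr-WT (blue) and 24hr-KO (red) libraries, with exact Poisson 95% intervals that cover counting error only. *Cdkn1a* and *Phlda3* were under 1 CPM in 0hr-WT and above 70 CPM in both stimulated libraries, while *Cdkn2d*, *Sesn1* and *Cdkn1b* were lower in both.

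*Cdkn1a* (ENSMUSG00000023067, chr17:29090976-29100727 on GRCm38, plus strand) had the largest difference of the members. It was at 0.377 CPM in 0hr-WT, from 14 UMIs in all, at 98.7 CPM in 24hr-WT, from 11540 UMIs, and at 103 CPM in 24hr-KO, from 10913 UMIs. The 24hr-WT level was 262-fold that of 0hr-WT, a log2 ratio of 8.03 (7.28 to 8.90). At a common depth of 1400 UMIs per cell, 0.0415% of 0hr-WT cells (0.00856 to 0.121%) had a *Cdkn1a* UMI, 9.87% of 24hr-WT cells (9.28 to 10.5%) and 11.2% of 24hr-KO cells (10.7 to 11.8%). The B cell gene *Cd79a*, which T cells lack, was seen in 0.152% of the 0hr-WT cells at that depth, and the share for *Cdkn1a*, being no higher, is not read as expression. The 14 UMIs were in 8 cells, with up to 3 in a cell, and 2 of the 4 cells with *Cdkn1a* at 4000 UMIs also had *Phlda3*, so the fold rests on very few cells. An unnamed gene, AC167363.2, overlaps *Cdkn1a* on the other strand.

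*Cdkn1b* (ENSMUSG00000003031, chr6:134920401-134925513, plus strand) went the other way. It was at 105 CPM in 0hr-WT, 26.7 CPM in 24hr-WT and 43.7 CPM in 24hr-KO. The 24hr-WT level was 3.95-fold lower than that of 0hr-WT, a log2 ratio of -1.98 (-2.05 to -1.91). A cell of the stimulated library held more RNA, and per cell the means were 0.487 and 0.315 UMIs. At 1400 UMIs per cell, 13.2%, 5.48% and 8.81% of the cells of the 3 libraries had a *Cdkn1b* UMI.

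Of the INK4 genes, *Cdkn2d* (ENSMUSG00000096472, chr9:21288410-21291407, minus strand) was the member with the lowest ratio. Its levels were 145, 16.7 and 17.9 CPM in 0hr-WT, 24hr-WT and 24hr-KO, an 8.68-fold lower level after stimulation, with a log2 ratio of -3.12 (-3.19 to -3.04). At 1400 UMIs per cell it was seen in 18.9% of the unstimulated cells and in 2.29% of those of 24hr-WT. *Cdkn2c* (ENSMUSG00000028551, chr4:109660876-109667189, minus strand), which binds the same kinases, was low throughout, at 3.90, 4.64 and 6.76 CPM. Its log2 ratio after stimulation was 0.25 (-0.02 to 0.52), an interval that holds no difference.

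*Trp53* (ENSMUSG00000059552, chr11:69580359-69591873, plus strand) had 164, 187 and 206 CPM in the 3 libraries. Its log2 ratio after stimulation was 0.19 (0.15 to 0.23), within 1.5-fold. Its negative regulator *Mdm2* (ENSMUSG00000020184, chr10:117688875-117710758, minus strand) was at 52.9, 48.6 and 53.5 CPM. *Trp53inp1* (ENSMUSG00000028211, chr4:11156431-11174379, plus strand), whose protein binds the kinases that phosphorylate p53, was at 30.8, 27.8 and 36.3 CPM. The log2 ratios of *Mdm2* and *Trp53inp1* after stimulation were -0.12 and -0.14, and their sign changed under other scalings, so no direction is given. Over whole libraries the transcripts of *Trp53*, *Mdm2* and *Trp53inp1* thus stayed within 1.5-fold, relative to the library total, while *Cdkn1a* and *Phlda3* did not. In cells of 2500 to 4000 UMIs, *Mdm2* and *Trp53inp1* were higher after stimulation past 1.5-fold, with log2 ratios of 0.73 (0.38 to 1.06) and 1.06 (0.67 to 1.44). Under 2500 UMIs they were at -0.03 and -0.07, at 4000 to 8000 at -0.28 and 0.43, and at 8000 to 16000 at -0.08 and -0.20. The cells of 2500 to 4000 UMIs were 1605 in 0hr-WT and 346 in 24hr-WT. Their median mitochondrial shares were unlike, at 2.28% and 10.2%, and the part of this in the ratios was not tested. The share of all genes past 1.5-fold is not given for that class, so these calls are not read as results about *Mdm2* and *Trp53inp1*. *Trp53* was at -0.22 (-0.37 to -0.07) in all cells under 4000 UMIs.

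Among the targets, *Phlda3* (ENSMUSG00000041801, chr1:135766119-135769136, plus strand), which encodes a small protein that limits AKT at the membrane, followed *Cdkn1a*. It was at 0.943 CPM in 0hr-WT, from 35 UMIs, and at 72.6 and 75.8 CPM in 24hr-WT and 24hr-KO, and its log2 ratio after stimulation was 6.27 (5.79 to 6.79). In 0hr-WT it was seen in 0.138% of the cells at 1400 UMIs, also no more than *Cd79a*. *Ccng1* (ENSMUSG00000020326, chr11:40748552-40755311, minus strand), which encodes cyclin G1, was present before stimulation at 83.8 CPM and was at 209 and 219 CPM after it, with a log2 ratio of 1.32 (1.27 to 1.37). *Sesn1* (ENSMUSG00000038332, chr10:41809935-41908424, plus strand), a sestrin that restrains mTORC1 signaling, was at 82.5, 15.6 and 24.6 CPM, with a log2 ratio of -2.40 (-2.49 to -2.32). Over whole libraries the p53 targets of the list therefore had no common direction. *Cdkn1a*, *Phlda3* and *Ccng1* were higher, *Sesn1* lower and *Mdm2* and *Trp53inp1* within 1.5-fold. *Sesn1* overlaps 9930024M15Rik on the same strand, and UMIs in the shared stretch could be split between them.

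A list of 40 further p53 targets was described in the same way. Of the 36 with at least 10 UMIs, 17 were higher and 8 lower after stimulation, with a median log2 ratio of 0.37, where 28.6% of all genes were higher and 34.3% lower, with a median of -0.09. By the rule for naming, the highest were *Perp*, *Sesn2* and *Plk2* and the lowest *Btg2*, *Gadd45a* and *Rrm2b*. *Perp* had 0 UMIs in 0hr-WT and 98 in 24hr-WT, at least 10.4-fold higher against a floor of 3 UMIs. *Sesn2*, a stress-induced sestrin, was at 2.40 and 19.8 CPM (log2 ratio 3.04), opposite to *Sesn1*. *Plk2*, a polo-like kinase, was at 2.64 and 16.1 CPM. *Btg2*, an antiproliferative gene of quiescent cells, was at 247 and 58.8 CPM. *Gadd45a* was at 7.03 and 2.03 CPM, and *Rrm2b*, a p53-inducible subunit of ribonucleotide reductase, at 22.8 and 8.82 CPM.

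Of 19 regulators of p53, 18 had at least 10 UMIs, of which 5 were higher and 5 lower, near the 28.6% and 34.3% of all genes, with a median of -0.14. The checkpoint kinase *Chek1* was at 0.135 and 20.4 CPM, the highest ratio of the list (log2 7.24), followed by *Ppp1r13l*, an inhibitor of p53, at 0.323 and 1.87 CPM, and *Chek2* at 2.29 and 6.38 CPM. *Ppp1r13b*, a cofactor of p53, was lowest at 30.7 and 5.41 CPM, followed by the acetyltransferase genes *Ep300*, at 39.7 and 17.6 CPM, and *Crebbp*, at 55.1 and 28.1 CPM. Of the other CDK inhibitors, *Cdkn1c* (p57) was at 2.21 and 1.60 CPM, and *Cdkn2a* and *Cdkn2b* had at most 5 UMIs in any library.

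The 16 genes for kinases, cyclins and other partners of the inhibitors had 9 higher and 4 lower, beside 28.6% and 34.3% of all genes, with a median of 0.94 beside -0.09. *Ccne2*, *E2f1* and *Cks1b* were the highest, and *Ccne2*, an S-phase cyclin, was at 0.242 and 2.43 CPM. *E2f1* was at 2.77 and 22.4 CPM, and *Cks1b*, which helps mark p27 for destruction, at 9.53 and 58.8 CPM. The retinoblastoma family genes *Rbl2*, at 36.0 and 13.7 CPM, and *Rb1*, at 16.9 and 7.39 CPM, were the lowest with *Ccnd3*, at 298 and 164 CPM. Of 6 FOXO-related genes and other sestrins, 1 was higher (*Sesn2*) and 3 lower. Those were *Klf2*, a quiescence factor, at 1090 and 110.4 CPM, *Ccng2*, at 36.0 and 7.04 CPM, and *Foxo1*, the factor itself, at 297 and 64.3 CPM. Of the lists used below to group cells, 40 of 42 S-phase genes and 41 of 54 G2/M genes were higher, and 4 of 5 naïve markers, all but *Ccr7*, were lower.

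The second comparison set 24hr-KO beside 24hr-WT. The deletion, the Cre, the mice and the library cannot be told apart here, and "the deletion of *Ift20*" below stands for all of them. Of the members, 2 were higher in 24hr-KO than in 24hr-WT, *Cdkn1b* and *Sesn1*, and 0 were lower, where 13.4% of 13504 genes were higher and 3.27% lower. The log2 ratio was 0.71 (0.65 to 0.78) for *Cdkn1b* and 0.66 (0.57 to 0.74) for *Sesn1*. With median-ratio scaling, and in UMIs per cell, 0 members passed 1.5-fold. The shares of all genes are not given for those scalings, so that count is not read as a result about the members. In CPM, *Cdkn2c* followed at 0.54 (0.38 to 0.71) and *Trp53inp1* at 0.38 (0.31 to 0.45). The other 6 members were between 0.06 and 0.14, beside a median of 0.14 over all genes. Only *Cdkn1b*, *Sesn1*, *Cdkn2c* and *Trp53inp1* were over 0.1 above that median, and counted per cell, without scaling to the library total, only *Cdkn1b* and *Sesn1* were above 0.

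The lists were set beside the 13.4% of all genes that were higher, the 3.27% that were lower and the median of 0.14. Of 37 p53 targets 3 were higher and 0 lower, namely *Zfp365* (log2 ratio 0.67), *Apaf1* (0.61) and *Perp* (0.61), and the list had a median of 0.23. Of 18 regulators of p53, 1 was higher, the p53 inhibitor *Mdm4*, at 31.2 and 51.4 CPM. *Ccne2* (1.00) and *Rbl2* (0.82) were the 2 higher of the 16 partners of the inhibitors, *Cdkn1c* was at 1.60 and 1.75 CPM, and none of the 6 FOXO-related genes and sestrins passed 1.5-fold. Of the 42 S-phase genes 6 were higher, with a median of 0.29, and of the 54 G2/M genes 18 were higher, with a median of 0.44, and 0 were lower in either list.

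The differences of *Cdkn1b* and *Sesn1* moved with the number of UMIs per cell. In 24hr-WT, *Cdkn1b* was at 103 CPM in cells with under 4000 UMIs and at 23.7 CPM in the others, and in 24hr-KO at 105 and 32.5 CPM. *Sesn1* was at 53.4 and 14.1 CPM in 24hr-WT and at 55.0 and 19.03 CPM in 24hr-KO. Among cells under 4000 UMIs, the log2 ratio of 24hr-KO over 24hr-WT was 0.03 (-0.12 to 0.19) for *Cdkn1b* and 0.04 (-0.17 to 0.26) for *Sesn1*, both with an interval that holds 0. That pooled class mixed depths, with 1953 of its 2299 cells under 2500 UMIs in 24hr-WT and 3776 of 6652 in 24hr-KO. In cells under 2500 UMIs the log2 ratio was -0.06 (-0.24 to 0.12) for *Cdkn1b* and 0.05 (-0.20 to 0.30) for *Sesn1*. In cells of 2500 to 4000 UMIs it was 0.46 (0.12 to 0.81) and 0.34 (-0.12 to 0.83). The cells with 8000 to 16000 UMIs numbered 4466 in 24hr-WT and 4805 in 24hr-KO. There the log2 ratio was 0.32 (0.22 to 0.42) for *Cdkn1b* and 0.32 (0.19 to 0.45) for *Sesn1*. In cells of 4000 to 8000 UMIs it was 0.40 (0.13 to 0.68) and 0.49 (0.14 to 0.85) for these genes. In cells over 16000 UMIs it was 0.35 (0.21 to 0.49) and 0.26 (0.07 to 0.44). With the pooled class set aside, the interval for *Cdkn1b* held 0 only under 2500 UMIs. That for *Sesn1* held 0 under 2500 and at 2500 to 4000 UMIs. The cells under 2500 UMIs were themselves unlike, with medians of 1745 UMIs in 24hr-WT and 2155.5 in 24hr-KO. Their median mitochondrial shares were 10.3% and 5.43%, and the part of this in the ratios was not tested. None of the classes of UMIs reached the 1.5-fold difference of the whole libraries, of which 24hr-KO held the larger share of cells under 4000 UMIs.

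For *Cdkn1a*, *Phlda3* and *Ccng1* the order was the reverse. They differed little between the whole stimulated libraries, with log2 ratios of 0.06, 0.06 and 0.07. In the cells with 8000 to 16000 UMIs, *Cdkn1a* had 75.3 CPM in 24hr-WT and 93.3 CPM in 24hr-KO (log2 ratio 0.31, 0.25 to 0.37). *Phlda3* had 57.1 and 72.8 CPM there (0.35, 0.28 to 0.42), and *Ccng1* 178 and 201 CPM (0.17, 0.13 to 0.21). Among the 546 and 1119 cells of 4000 to 8000 UMIs the differences of *Cdkn1a* and *Phlda3* were past 1.5-fold, with log2 ratios of 0.79 (0.52 to 1.06) and 0.67 (0.36 to 0.99). The share of all genes past 1.5-fold is not given for these cells, so the calls are not read as results about *Cdkn1a* and *Phlda3*. In cells over 16000 UMIs the log2 ratios were 0.10 for *Cdkn1a*, 0.14 for *Phlda3* and -0.002 for *Ccng1*. In all cells of 4000 UMIs and over, the log2 ratios of *Cdkn1a*, *Phlda3* and *Ccng1* were 0.07, 0.12 and 0.02. In cells at or above the median of their own library the order turned. There *Cdkn1a* was at 113 CPM in 24hr-WT and 104 CPM in 24hr-KO. *Phlda3* was at 83.4 and 80.5 CPM and *Ccng1* at 229 and 213 CPM. The direction for these genes therefore depended on how the cells were matched. *Trp53* was nearly level in the deeper cells, at 0.13 between 8000 and 16000 UMIs, but among cells under 4000 UMIs it was at 132 CPM in 24hr-WT and 204 CPM in 24hr-KO (0.64, 0.51 to 0.77), the only member past 1.5-fold in that class. The share of all genes past 1.5-fold is not given for that class, so this call is not read as a result about *Trp53*.

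**Figure D2:**
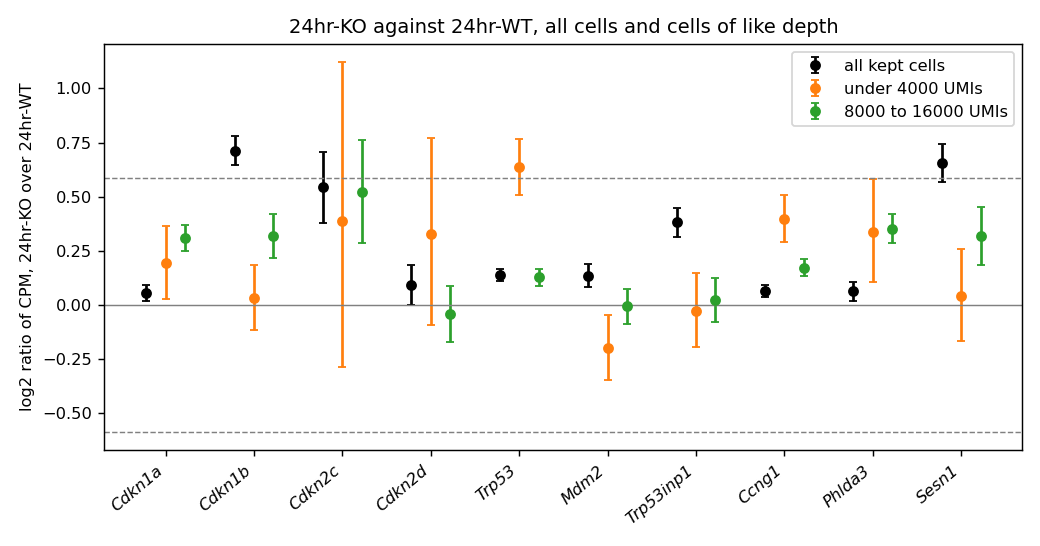
The log2 ratio of CPM, 24hr-KO over 24hr-WT, for each gene in all kept cells (black), in cells under 4000 UMIs (orange) and in cells with 8000 to 16000 UMIs (green), with exact binomial 95% intervals that cover counting error only and dashed lines at 1.5-fold. *Cdkn1b* and *Sesn1* passed the upper line in all cells only, and *Trp53* passed it in the cells under 4000 UMIs only. The shares of all genes past 1.5-fold are not given for the classes of UMIs.

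The dependence on UMIs per cell was described in 5 fixed classes, set after the data had been seen, because classes relative to each library's median put different cells side by side (the lowest of those ended at 1542, 4056 and 1672 UMIs). *Cdkn1b*, *Sesn1*, *Mdm2* and *Trp53inp1* were highest in cells under 4000 UMIs in all 3 libraries. In 0hr-WT, the 1052 cells under 2500 UMIs had *Cdkn1b* at 335 CPM and the 4978 cells of 4000 to 8000 UMIs at 94.4 CPM. *Mdm2* was at 113 and 50.5 CPM in these cells, and *Trp53inp1* at 88.3 and 26.5 CPM. These cells also stood apart in other RNA: their median mitochondrial share was 9.399% against 2.25%, and the nuclear RNA *Malat1* was at 24987 CPM, against 4308 CPM in all cells of 4000 UMIs and over. In 24hr-WT the cells under 4000 UMIs had a median mitochondrial share of 10.3% against 1.26%, and in 24hr-KO of 5.67% against 1.08%. The part of RNA quality in these differences was not tested.

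Not all members shared this pattern. *Cdkn2d* in 0hr-WT was lower in the cells under 2500 UMIs, at 90.6 CPM against 145 CPM in the cells of 4000 to 8000 UMIs, and *Trp53* was at 145 and 167 CPM. *Cdkn1a* and *Phlda3* were higher in the deepest stimulated cells: *Cdkn1a* in 24hr-WT was at 41.5 CPM in the 546 cells of 4000 to 8000 UMIs, 75.3 CPM in those of 8000 to 16000 and 127 CPM in the 2592 cells over 16000, while the 1953 cells under 2500 were at 77.5 CPM. *Phlda3* was at 32.4, 57.1 and 93.5 CPM in these classes and *Ccng1* at 130.4, 178 and 247 CPM, while *Cdkn1b* was at 43.8, 26.3 and 19.8 CPM and *Sesn1* at 25.9, 15.2 and 12.2 CPM. The same order was seen in 24hr-KO, with *Cdkn1a* at 71.5, 93.3 and 136 CPM and *Cdkn1b* at 57.8, 32.8 and 25.3 CPM.

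**Figure D3:**
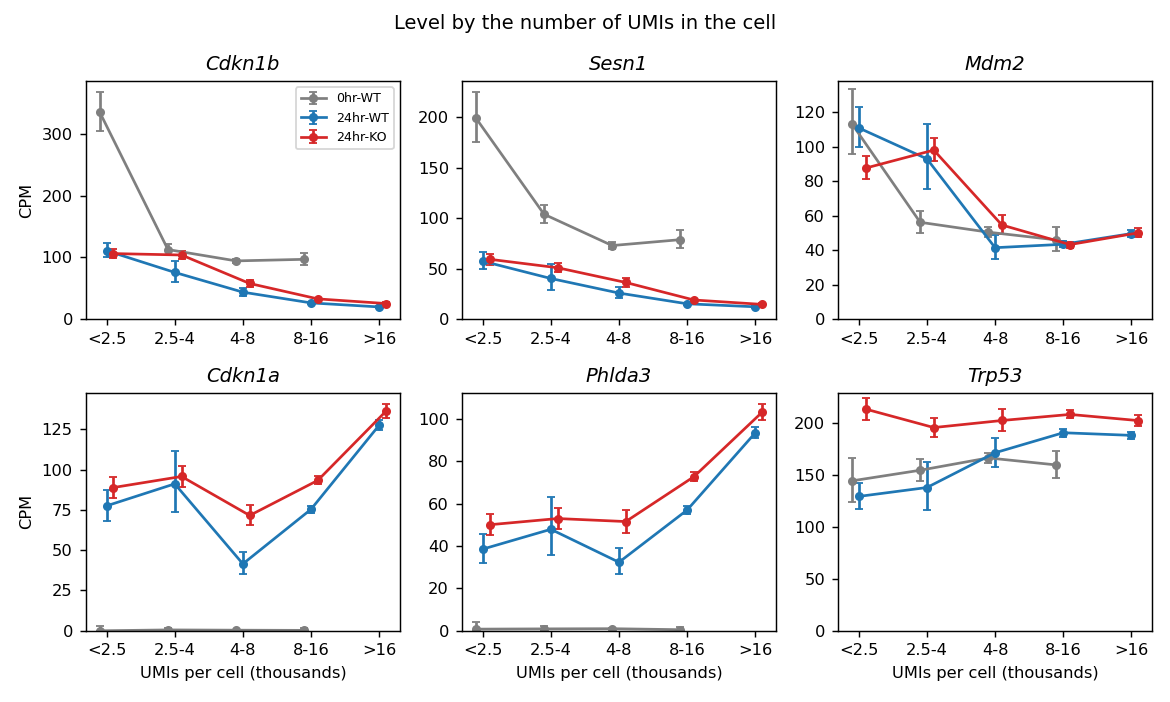
Level (CPM) of 6 genes in cells grouped by their number of UMIs, for 0hr-WT (grey), 24hr-WT (blue) and 24hr-KO (red), with exact Poisson 95% intervals; classes with under 20 cells are not drawn. *Cdkn1b*, *Sesn1* and *Mdm2* were highest in cells under 4000 UMIs, and *Cdkn1a* and *Phlda3* were highest in stimulated cells over 16000 UMIs.

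Stimulated cells were also grouped by cell-cycle genes, after each had been thinned to 1400 UMIs so that the grouping was at equal depth, and the levels were then taken over all UMIs of a group. G2/M-rich cells had at least 10 UMIs over 54 G2/M genes, S-rich cells at least 10 over 42 S-phase genes and fewer of the former, and cells called neither had under 5 of each. In 24hr-WT these were 109, 592 and 5038 cells, and in 24hr-KO 191, 1436 and 4937 cells. The groups are ranges of a count, and 96 cells of 24hr-WT and 202 of 24hr-KO lay directly beside the G2/M threshold. Beside the S-phase threshold lay 530 and 1303 cells.

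The INK4 genes were highest in the G2/M-rich cells. *Cdkn2c* in 24hr-WT was at 3.16 CPM (2.73 to 3.64) in cells with neither, 9.66 CPM (7.61 to 12.1) in S-rich and 31.4 CPM (23.0 to 41.9) in G2/M-rich cells, which is 9.93-fold over neither. In 24hr-KO it was at 4.13, 14.3 and 45.4 CPM, the last 10.99-fold over the first. *Cdkn2d* was at 16.3, 18.2 and 40.3 CPM in 24hr-WT and at 17.99, 19.6 and 37.7 CPM in 24hr-KO. With cells grouped at 4000 UMIs, *Cdkn2c* in G2/M-rich cells was 15.9-fold over neither in 24hr-WT and 18.1-fold in 24hr-KO, and *Cdkn2d* in 24hr-KO was 3.27-fold, against 2.10-fold at 1400 UMIs. The G2/M-rich cells were few and held 46 of the *Cdkn2c* UMIs of 24hr-WT, while S-rich, intermediate and neither cells held 76, 222 and 194.

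*Cdkn1a*, *Phlda3* and *Ccng1* had another order, lower in the S-rich cells than in cells with neither. *Cdkn1a* in 24hr-WT was at 116 CPM in cells with neither, 75.9 CPM in S-rich and 134 CPM in G2/M-rich cells, and in 24hr-KO at 127, 78.9 and 131 CPM. The log2 ratio of S-rich over neither was -0.61 (-0.73 to -0.49) in 24hr-WT and -0.69 (-0.80 to -0.58) in 24hr-KO. *Phlda3* gave -0.49 and -0.47 and *Ccng1* -0.42 and -0.34 for the same contrast. The intermediate cells, which lay between these groups, were close to the S-rich cells, with *Cdkn1a* at 78.4 CPM in 24hr-WT. With cells grouped at 4000 UMIs, the intermediate cells were the lowest for all 3 genes in both libraries. *Cdkn1a* was then at 67.9 CPM in intermediate and 81.6 CPM in S-rich cells of 24hr-WT, and at 72.2 and 78.1 CPM in 24hr-KO. *Mdm2* was higher in G2/M-rich cells than in neither, at 68.9 and 49.1 CPM in 24hr-WT and 73.3 and 50.4 CPM in 24hr-KO. With cells grouped at 4000 UMIs, *Cdkn1a* in the 43 G2/M-rich cells of 24hr-WT was at 192 CPM, against 116 CPM in neither. In 24hr-KO it was at 175 and 131 CPM. The G2/M list held *Psrc1*, whose Pearson's r with *Cdkn1a* in 24hr-WT at 4000 UMIs was 0.23. It was 0.20 with *Phlda3* and 0.21 with *Ccng1*. The G2/M grouping was thus not independent of these genes, and the part of this in their levels was not tested. *Trp53* itself was within 1.5-fold over the 3 groups in both libraries. S-rich cells of 24hr-KO were less deep than those of 24hr-WT, with medians of 2996 and 14638 UMIs before thinning, and *Cdkn1b* was at 48.5 and 24.7 CPM in them.

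**Figure D4:**
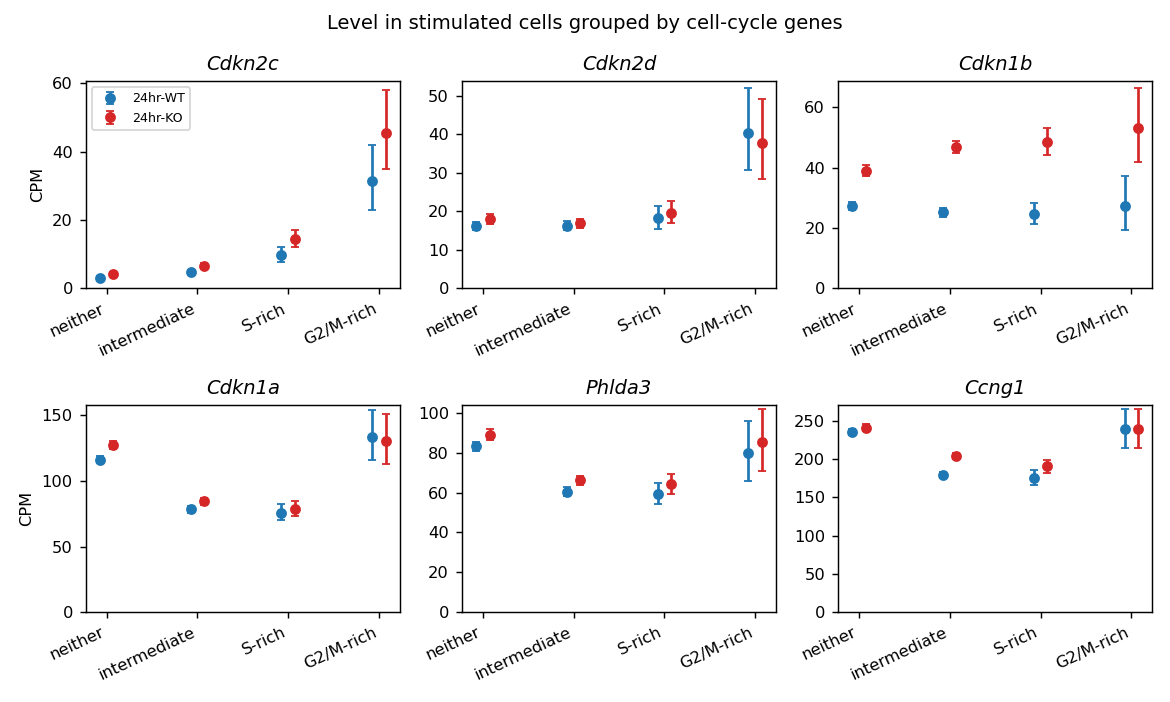
Level (CPM) of 6 genes in stimulated cells grouped by UMIs of S-phase and G2/M genes at 1400 UMIs per cell, for 24hr-WT (blue) and 24hr-KO (red), with exact Poisson 95% intervals. *Cdkn2c* and *Cdkn2d* were highest in the G2/M-rich cells of both libraries, and *Cdkn1a*, *Phlda3* and *Ccng1* were lower in the intermediate and S-rich cells than in cells with neither.

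In 0hr-WT, 8 of the 14 *Cdkn1a* UMIs were in the 518 cells with 5 to 9 UMIs of either list, 3.20 CPM (1.38 to 6.31), against 0.178 CPM (0.0652 to 0.387) in the 6703 cells with fewer. Since the 14 UMIs came from 8 cells, these intervals are too narrow.

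Stimulated cells with at least 4000 UMIs, thinned to 4000, were also grouped by their UMIs of 5 naïve markers (*Il7r*, *Klf2*, *Ccr7*, *S1pr1*, *Ltb*). The groups were set after the data had been seen. *Ccr7* was not lower after stimulation past 1.5-fold, and the highest marker made 532 of the 1102 CPM of the list in 24hr-WT. The count is therefore not a measure of how far a cell had left the naïve state. In 24hr-WT, 1016 cells had 10 or more UMIs of these markers and 3213 cells had 0 to 2. *Sesn1* was at 26.8 CPM in the former and 8.87 CPM in the latter (log2 ratio 1.59, 1.38 to 1.80), *Cdkn1b* at 41.5 and 18.2 CPM (1.19, 1.03 to 1.35) and *Cdkn2d* at 27.8 and 13.9 CPM (1.00, 0.81 to 1.19). *Cdkn1a* had the opposite order, at 63.3 and 115 CPM (-0.86, -0.97 to -0.75). *Trp53* and *Mdm2* were at 206 and 181 CPM and at 42.4 and 47.6 CPM. In 24hr-KO the log2 ratios were 1.68 for *Sesn1*, 1.13 for *Cdkn1b*, 0.68 for *Cdkn2d* and -1.08 for *Cdkn1a*, each of the same sign as in 24hr-WT. The 3 members that were lower after stimulation were thus higher in the stimulated cells with more naïve transcripts, but so was *Cdkn2c*, which was not lower after stimulation, at 6.77 and 3.49 CPM in 24hr-WT (0.96, 0.56 to 1.34) and with a log2 ratio of 1.01 in 24hr-KO. *Trp53inp1* was also higher in them, with log2 ratios of 0.38 and 0.59. Those cells were less deep, with a median of 11258 UMIs against 14922 in 24hr-WT.

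The p53 targets that were higher after stimulation were unevenly spread over the cells. In 24hr-WT the 10% of cells with the most *Cdkn1a* held 66.1% of the *Cdkn1a* UMIs, and the highest cell had 33. That share alone did not set *Cdkn1a* apart, as it was 69.7% for *Sesn1*, 65.6% for *Cdkn2d* and 45.7% for *Ccng1*. At 4000 UMIs per cell the variance over the mean, which is 1 for counts that vary by sampling alone, was 2.01 for *Cdkn1a*, 1.65 for *Ccng1* and 1.53 for *Phlda3*. Over the 3773 genes with a mean of 0.1 to 1 UMI its median was 1.03 and its 95th percentile 1.25. The other members were between 1.04 and 1.13, *Trp53* at 1.04. In 24hr-KO the values were 1.80, 1.55 and 1.38 for these 3 genes and 1.03 for *Trp53*.

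The same genes were found together in more cells than independence would give. At 4000 UMIs per cell in 24hr-WT, 1613 of 7604 cells had *Cdkn1a* and 1395 had *Phlda3*. Both were in 612 cells, where 296 would be expected if the 2 were independent, a ratio of 2.07 (1.91 to 2.24). *Cdkn1a*, *Phlda3* and *Ccng1* were also each higher in the cells that had more UMIs before thinning. The part of this in the ratios was not tested. *Ccng1* and *Phlda3* gave 925 cells and 1.47 (1.38 to 1.57), *Cdkn1a* and *Ccng1* 1046 cells and 1.44 (1.35 to 1.53), and *Cdkn1a* and *Mdm2* 353 cells and 1.44 (1.29 to 1.60). *Trp53inp1* was with *Cdkn1a* at 1.33 and with *Phlda3* at 1.37. *Trp53* and *Cdkn1a* gave 1.04 (0.98 to 1.12), an interval that holds 1, as *Sesn1* and *Cdkn1a* did at 0.87 (0.70 to 1.08). In 24hr-KO the ratio of *Cdkn1a* and *Phlda3* was 1.71 (1.59 to 1.85), of *Ccng1* and *Phlda3* 1.28, of *Cdkn1a* and *Ccng1* 1.29 and of *Cdkn1a* and *Mdm2* 1.30. Each of these 4 was lower than in 24hr-WT, and the difference between the libraries was not tested. At 1400 UMIs, where cells with few UMIs enter, *Cdkn1a* and *Phlda3* gave 2.60 (2.24 to 3.01) in 24hr-WT and 1.49 (1.29 to 1.72) in 24hr-KO.

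Among the members that were lower after stimulation, *Cdkn1b* and *Sesn1* were together in 470 of 5374 cells of 0hr-WT, a ratio of 1.17 (1.07 to 1.28), in 63 cells of 24hr-WT, a ratio of 1.47 (1.13 to 1.89), and in 97 cells of 24hr-KO, a ratio of 1.35 (1.098 to 1.65). *Cdkn2c*, which was not lower after stimulation, and *Sesn1* gave 1.97 (1.32 to 2.83) in 24hr-KO, from 29 cells. In 24hr-WT this pair gave 1.09 (0.50 to 2.07), from 9 cells. At 4000 UMIs per cell, 13 of the 45 pairs of members had an interval above 1 in each stimulated library and 0 below 1. In 0hr-WT, where 32 pairs had at least 5 expected cells, 3 had one above 1, namely the pairs among *Cdkn1b*, *Sesn1* and *Trp53inp1*. At 1400 UMIs some intervals were below 1 and others, as for *Cdkn1a* and *Phlda3* after stimulation, above it. Below 1 were *Cdkn1a* and *Cdkn1b* in 24hr-WT, at 0.72 (0.51 to 0.99), and *Cdkn2d* and *Sesn1* in 0hr-WT, at 0.81 (0.67 to 0.97). Pairs of other genes were not counted, so the counts are not read as results about the members.

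**Figure D5:**
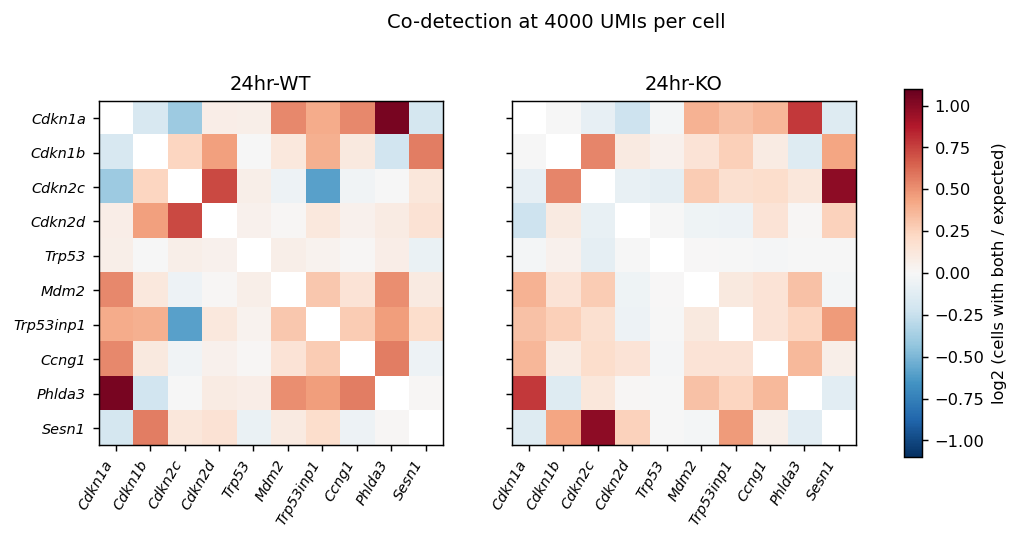
Number of cells with a UMI of both genes over the number expected for independent genes, on a log2 colour scale, for each pair at 4000 UMIs per cell in 24hr-WT (7604 cells, left) and 24hr-KO (7268 cells, right). *Cdkn1a*, *Phlda3*, *Ccng1* and *Mdm2* formed red pairs in both libraries, the row of *Trp53* was nearly white, and the deep colours of the *Cdkn2c* row rest on few cells (29 for *Sesn1* in 24hr-KO).

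The genes most like the members were named by Pearson's r over the 24hr-WT cells on the log scale, a description over cells that share 1 library. At 4000 UMIs per cell and over 6064 genes, the 5 most like *Cdkn1a* were *Phlda3* (r = 0.32), *Ccng1* (0.28), *Rps27l* (0.26), *Bax* (0.24) and *Glipr1* (0.24). For *Phlda3* and for *Ccng1*, the other 2 of these members with *Rps27l* and *Bax* filled the first 4 places. In 24hr-KO the first 5 of *Cdkn1a* were the same genes in a slightly different order, with r from 0.18 to 0.26. At 1400 UMIs per cell in 24hr-WT they were *Phlda3* (0.16), *Ccng1*, *Rps27l*, *Snhg6* and *Glipr1* (0.09), and in 24hr-KO the highest was 0.075, for *Rps27l*. *Rps27l*, *Bax*, *Zmat3* and *Aen*, which were on the list of p53 targets, were at 96.6, 144, 11.4 and 30.6 CPM in 0hr-WT and at 510, 318, 42.9 and 95.03 CPM in 24hr-WT.

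For the other members the coefficients were small. The 5 genes most like *Cdkn1b* at 1400 UMIs were *Malat1* (0.17) and 4 mitochondrial transcripts, and *Malat1* or mitochondrial transcripts also filled the first 5 places for *Mdm2* and *Trp53inp1*. At 4000 UMIs, where the cells with few UMIs are left out, *Ccr7* (0.11) was first for *Cdkn1b* and (0.14) for *Sesn1*, and *Klf2* (0.10) for *Cdkn2d*, all naïve markers, while *Cdkn1a* (0.12) and *Phlda3* (0.10) were the first 2 for *Mdm2*, as they were in 24hr-KO. For *Trp53* no gene exceeded 0.07 at either depth.

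Cells of 24hr-WT with 3 or more *Cdkn1a* UMIs at 4000 UMIs per cell were 267 (3.51%), and in 24hr-KO 244 (3.36%). *Mdm2* was at 91.5 CPM in them against 39.7 CPM in the cells without *Cdkn1a* in 24hr-WT, *Phlda3* at 266 and 47.5 CPM, *Trp53inp1* at 48.9 and 22.9 CPM, and *Trp53* at 213 and 188 CPM. *Sesn1* had the opposite order, at 9.81 and 15.3 CPM in 24hr-WT (-0.64, -1.11 to -0.21) and 10.4 and 19.7 CPM in 24hr-KO (-0.91, -1.44 to -0.44). The cells with 3 or more *Cdkn1a* UMIs were deeper before thinning than those without. Their medians were 16417 against 13467 UMIs in 24hr-WT and 13366 against 11370 in 24hr-KO. The part of depth in these contrasts was not tested.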

How the data were processed

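The authors aligned the reads to mm10 and counted UMIs per gene and cell barcode with Cell Ranger, given as 3.1.0 in the file headers, and deposited the counts without normalization. The labels name a 5′ kit and the methods a 3′ kit, which read opposite ends of a transcript, so levels of different genes are not strictly comparable. The reading of *Cdkn1a* and *Phlda3* beside *Cd79a* in 0hr-WT, and of *Cdkn2c* as low, is therefore rough. Following the methods, barcodes were kept if they showed over 200 genes and a mitochondrial share below 15%, leaving out 222, 417 and 12 barcodes. UMIs were summed per library over these cells. A gene at 0 in 1 library was set to a floor of 3 UMIs.

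Cells were thinned without replacement to 1400 UMIs, leaving out 801, 421 and 0 shallower cells, or to 4000, leaving 5374, 7604 and 7268. The members and gene lists were chosen with earlier results of these data known. The text names every member, the 3 highest and lowest genes of a list with at least 50 UMIs, the 5 genes most like a member, and *Ift20*, and *Zmat3* and *Aen* beside them were chosen after their values were seen. Positions came from GENCODE M21 and promoters from RefSeq (GRCm38.p6). Python 3.11.15, numpy 2.4.6, scipy 1.17.1, pandas 2.3.3 and matplotlib 3.10.9 were used, and the ratio calculation was tested on simulated data. Cells of 1 library are not replicates. Doublets were not called. The cell-cycle thresholds, fixed UMI classes and naïve-marker groups were set after the data were seen. Other scalings, filters and depths were tried. Some markers are not reported or used here, which changed the marker lists after the data were seen.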

Additional observations from a re-analysis of the deposited data

Results flagged for a closer look

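In the barcodes that the filter left out for 15% or more mitochondrial UMIs, and that no comparison used, 2 members had a level in 24hr-WT above that in 0hr-WT beyond the counting intervals. *Cdkn1a* was at 83.4 CPM (64.1 to 107) in the 417 barcodes of 24hr-WT and at 0 of 191383 UMIs (up to 19.3 CPM) in the 222 barcodes of 0hr-WT. *Ccng1* was at 217 CPM (185 to 253) and 78.4 CPM (43.9 to 129). Both levels were close to those of the kept cells of each library. Other members were lower beyond the intervals. *Cdkn1b* was at 277 CPM (207 to 362) in the left-out barcodes of 0hr-WT and 128 CPM (104 to 157) in those of 24hr-WT. *Sesn1* was at 246 CPM (180 to 327) and 49.0 CPM (34.5 to 67.6). The 12 barcodes of 24hr-KO held 24507 UMIs and 2 of *Cdkn1a*, too few for a level.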

How the results depend on the processing

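After stimulation, *Cdkn1a*, *Phlda3*, *Ccng1*, *Cdkn1b*, *Cdkn2d* and *Sesn1* kept their sign under all 10 alternatives, with *Cdkn1a* between 7.52 and 9.38, *Cdkn1b* between -2.04 and -0.59 and *Sesn1* between -2.48 and -1.05 (log2), relative to their library total unless stated. The members higher numbered 7 in UMIs per barcode and 5 in cells under 4000 UMIs, in place of 3, and their median ratio, 0.03, was 0.24 with median-ratio scaling, 1.39 in UMIs per barcode, 0.18 at 1400 UMIs, -0.11 in cells of 8000 to 16000 UMIs and 0.32 in cells under 4000. UMIs per barcode moved the median of all genes by construction, to 1.26. The shares of all genes are not given for these alternatives, so the counts of members are not read as results about the members. For the deletion of *Ift20*, the members higher, 2, were 0 with median-ratio scaling, in UMIs per barcode, at 4000 UMIs and over and at 8000 to 16000 UMIs, and 1 under 4000 UMIs. Their median ratio, 0.14, was 0.00198 with median-ratio scaling, -0.49 in UMIs per barcode, 0.24 at 8000 to 16000 UMIs and 0.26 under 4000. *Cdkn1b* ranged from 0.03 to 0.87 and *Sesn1* from 0.03 to 0.80. Groups of cells cut at 4000 UMIs in place of 1400 turned values of 24hr-KO, among them *Sesn1* in G2/M-rich cells from 0.61 to -0.24, *Cdkn1b* from 0.45 to -0.11 in G2/M-rich and from 0.32 to -0.13 in S-rich cells, and *Phlda3* in G2/M-rich cells from -0.06 to 0.48. The cause was not tested. The 3 classes of UMIs were chosen after seeing the data. The share of all genes lower in 24hr-KO was 9.64% with a minimum of 1 UMI and 1.06% with 100, and that of genes higher 18.6% and 8.82%. No paired analysis was possible because each group has 1 library. Depth limits most the members with few UMIs, *Cdkn2c* and, in 0hr-WT, *Cdkn1a* and *Phlda3*.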
